A study of Rattus norvegicus with 10 samples.

Results

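Prolactin and growth hormone act on the mammary gland through the kinase JAK2 and the transcription factors STAT5A and STAT5B, and 8 genes of this pathway were compared between mammary glands of 2 rat strains treated with 17β-estradiol (E2). The genes were the receptors Prlr and Ghr, the kinase Jak2, the transcription factors Stat5a and Stat5b, and the feedback inhibitors Cish, Socs1 and Socs2. Every probe set (a group of short probes that reads 1 or more transcripts) annotated to 1 of these symbols alone was kept, which gave 13 probe sets of the 31042 tested and 8 genes of 14217. The samples were whole mammary glands of 5 female ACI rats (ACI/SegHsd) and 5 female BN rats (Brown Norway), with 1 array per rat. Each rat was assigned to a strain by its title and strain label. For the BN arrays, the notes on RNA preparation mention ACI animals instead, and this conflict was not resolved. The labels give an age of 21 weeks for the ACI rats and no age for the BN rats. All 10 rats received E2 continuously from subcutaneous implants, beginning at 9 weeks of age and lasting 12 weeks, and no untreated gland was compared. The letter opening each animal's ID is S for rats 1 to 3 and H for rats 4 and 5 of both strains, and what it stands for is not stated by the labels or the study. Prlr and Stat5a were among the genes that the study named on these same samples, so their values here are not independent evidence of a direction.

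Binding of prolactin or growth hormone brings 2 receptor chains together, which activates the JAK2 bound to them. JAK2 then phosphorylates STAT5, which enters the nucleus and switches on milk protein genes, growth genes and its own inhibitors. In the mammary gland the prolactin receptor and Stat5a serve alveolar growth and milk production, whereas growth hormone acts largely through its receptor in the stroma. Cish, Socs1 and Socs2 encode SH2 domain proteins that are made in response to cytokine signals and damp the receptors.

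STAT5 binds the palindrome TTCNNNGAA, which reads the same on both strands, and Cish is a gene with well known sites of this kind. The 250 bases before the transcription start were searched in RefSeq promoter sequences of build GRCr8, an assembly of a Brown Norway substrain, and ACI sequence was not analysed here. Of 33469 windows, 2566 held the motif (7.67%), 140 held at least 2 (0.418%) and 2 held at least 4. Windows were given for 7 of the 8 genes, with 2 windows for Prlr, and 3 of these 8 windows held the motif. The Cish window held 4 matches, centred 237, 226, 132 and 115 bases before the start, and the second Prlr window and the Socs1 window held 1 each. Among the milk genes, 4 of 7 windows held it, those of Csn1s1, Csn1s2a, Csn2 and Glycam1. The Cish window is shown whole because of its 4 matches, and the Prlr, Socs1 and Csn2 (beta-casein) matches are shown with their flanks for comparison, with the motif in capitals. The positions are chr8:116850719-116850968, chr2:60909463-60909511, chr10:5389358-5389406 and chr14:20601707-20601755, all on the + strand.
Cish: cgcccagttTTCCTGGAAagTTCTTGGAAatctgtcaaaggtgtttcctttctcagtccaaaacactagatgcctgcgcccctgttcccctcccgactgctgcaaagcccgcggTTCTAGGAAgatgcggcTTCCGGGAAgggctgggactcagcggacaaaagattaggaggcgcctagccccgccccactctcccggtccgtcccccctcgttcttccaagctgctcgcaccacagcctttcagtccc
Prlr: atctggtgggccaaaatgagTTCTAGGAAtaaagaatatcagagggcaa
Socs1: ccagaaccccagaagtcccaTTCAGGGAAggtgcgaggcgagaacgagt
Csn2: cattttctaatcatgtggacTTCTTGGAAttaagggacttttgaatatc
The matches are letters in a window, and binding was not measured.

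The deposited values are log2 expression after GCRMA, with a lowest value of 2.23 and a highest of 15.8, and 30.6% to 33.3% of the probe sets of an array sat at the lowest value. A probe set was called near background in a strain where all 5 rats were under 4. Control probe sets for the 2 ends of the beta-actin message differed by 2.24 to 3.42 (3′ minus 5′, log2) in the ACI rats, and by 4.78, 4.80, 4.24, 3.21 and 2.45 in BN rats 1 to 5. For GAPDH the same difference was 0 to 0.43 in the ACI rats and 0.39 to 2.03 in the BN rats. The 5′ signal was thus low relative to the 3′ signal in BN rats 1 to 3 above all, and each strain difference below was also computed with the mean of the 2 control differences as a covariate. That mean was 1.12 to 1.89 in ACI and 1.42 to 3.405 in BN, so the covariate and strain overlap and the test with it has less power. BN rats 4 and 5 stood apart from BN rats 1 to 3 on the second principal component, which held 18.9% of the variance. In whole glands, fewer cells of a type and less RNA per cell cannot be told apart, and the strains were deposited in separate runs of samples, so that strain and deposit cannot be told apart either.

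**Figure D1:**
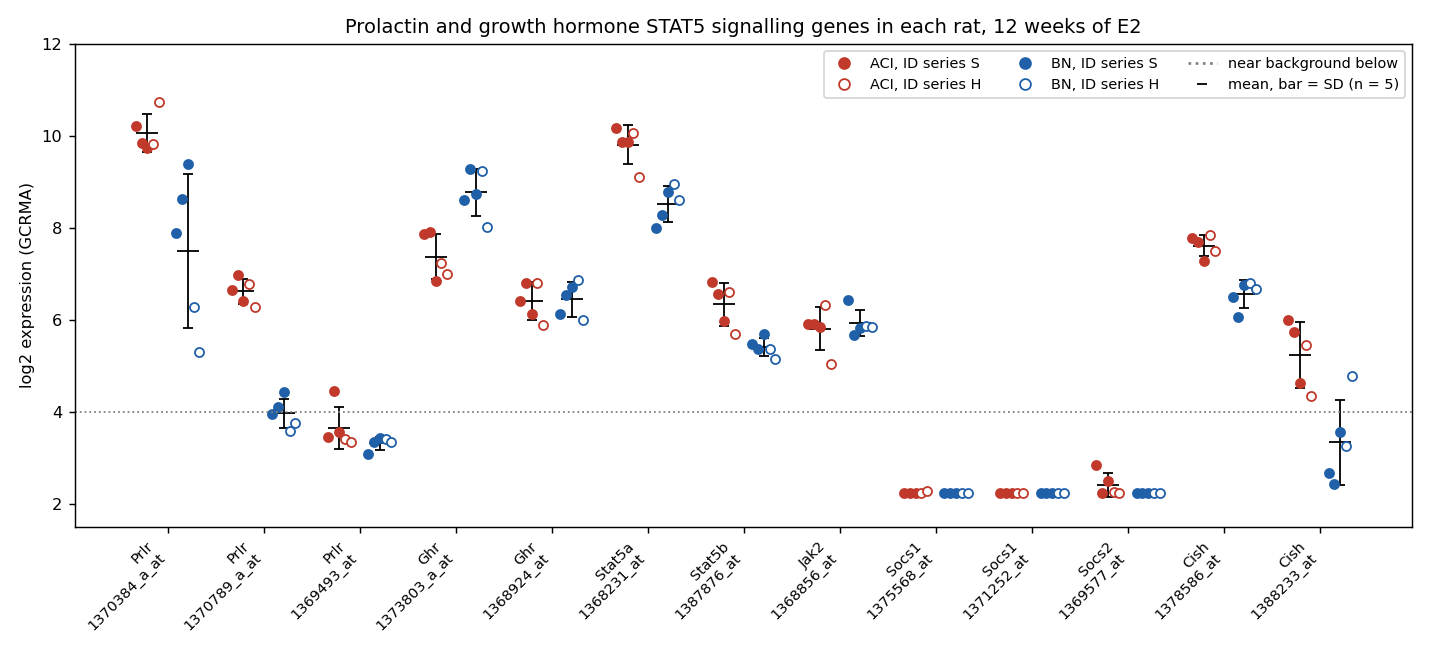
Log2 expression (GCRMA) of the 13 probe sets in each of the 5 ACI and 5 BN rats, with filled points for animal ID series S, open points for series H, horizontal marks for strain means and bars for SD. The strains separate at Prlr 1370384_a_at and 1370789_a_at, Stat5a and Cish 1378586_at with ACI above, and at Ghr 1373803_a_at with BN above, while the Socs1 and Socs2 probe sets lie near background.

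The prolactin receptor, both STAT5 genes and Cish were higher in ACI by at least 1 probe set, and the growth hormone receptor was higher in BN at 1 of its 2 probe sets. Of the 13 probe sets, 5 were higher in ACI, 1 was higher in BN and 7 did not pass the test (limma, adjusted p under 0.05). That is 46.2% called, where 12.7% of all probe sets tested were called, 6.79% higher in ACI and 5.87% higher in BN. Cish was called at both of its probe sets, Prlr at 1 of 3 and Ghr at 1 of 2. With each gene represented by its probe set of highest mean, 3 of the 8 genes were higher in ACI (Stat5a, Stat5b and Cish) and 1 was higher in BN (Ghr), against 8.29% and 9.12% of all genes. The median log2 difference, ACI minus BN, was 0.33 over the 13 probe sets and 0 over all probe sets tested. The values of the strains did not overlap at 5 of the 13 probe sets, 4 with ACI above and 1 with BN above, and did not overlap at 12.3% of all probe sets. Of the 13, 9 averaged at least 4, whereas 14067 to 14596 of all 31042 probe sets exceeded 4 on an array. The shares over all probe sets given above thus hold more that lie near background. With probe sets averaging under 4 left out, 6 of these 9 were called higher in ACI and 1 higher in BN. The counts over all probe sets kept were then 2639 and 2282. With the control difference as a covariate, 2 of the 13 were called higher in ACI and 0 higher in BN, where 6.18% and 2.94% of all probe sets were. Those 2 were the Prlr probe sets 1370384_a_at and 1370789_a_at.

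**Figure D2:**
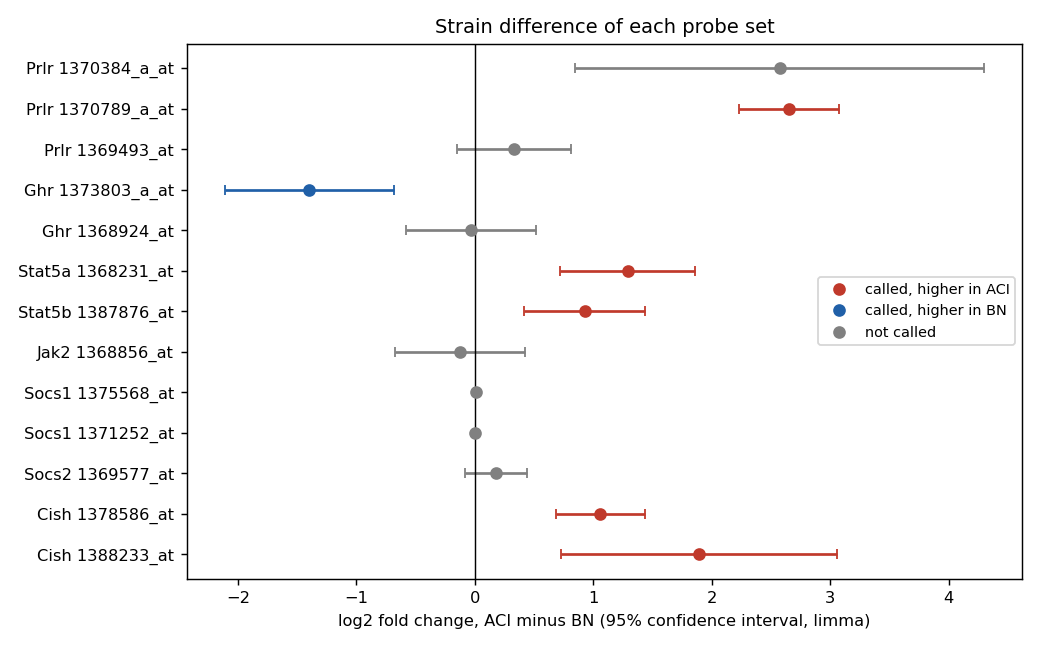
Log2 fold change (ACI minus BN) of each probe set with its 95% confidence interval from limma, coloured by call. The interval of Prlr 1370384_a_at runs from 0.845 to 4.30 and its adjusted p of 0.0619 misses the threshold, whereas Prlr 1370789_a_at has nearly the same difference with a much narrower interval.

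Prlr encodes the prolactin receptor, which exists in long and short forms made by alternative splicing, and 3 probe sets read it. The suffix _a_at marks probe sets designed to match several transcripts of 1 gene, but the sources used here do not say which receptor forms each one reads. At 1370384_a_at, the brightest, the ACI rats had log2 values of 10.22, 9.85, 9.73, 9.83 and 10.73, and the BN rats had 7.88, 8.63, 9.40, 6.27 and 5.31. Every ACI rat was above every BN rat, by a gap of 0.33, and the BN rats ranged over far more than the ACI rats, with BN rats 4 and 5 lowest. The means were 10.07 ± 0.412 in ACI and 7.50 ± 1.68 in BN (SD, n = 5 each), a log2 difference of 2.57 with an SE of 0.756. The limma test missed the threshold (adjusted p = 0.0619). The exact permutation test of this probe set alone gave the smallest two-sided p that 5 against 5 rats allow, 0.0079, without adjustment. Every probe set without overlap between the strains has this p, and 12.3% of all probe sets had no overlap. It therefore adds nothing to the separation given above.

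The second Prlr probe set, 1370789_a_at, read 6.65, 6.97, 6.41, 6.78 and 6.29 in the ACI rats and 3.95, 4.11, 4.42, 3.59 and 3.76 in the BN rats. The strains were separated by 1.87, the widest gap of the 13 probe sets, and 3 of the BN rats lay under 4. The means were 6.62 ± 0.275 and 3.97 ± 0.321 (SD, n = 5 each), 6.29-fold higher in ACI on the log2 difference of 2.65 (SE 0.184, adjusted p = 9.24e-05). With the control difference as a covariate the log2 difference was 2.74 (adjusted p = 0.00254). The third, 1369493_at, read 3.34 to 4.46 in ACI and 3.08 to 3.43 in BN and did not pass the test (log2 difference 0.33, SE 0.21, adjusted p = 0.418).

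The spread of Prlr 1370384_a_at in BN followed the animal ID series. The strain difference was 1.30 on the log2 scale among the S rats (adjusted p = 0.152) and 4.49 among the H rats (adjusted p = 0.197). Within BN, the H rats were lower than the S rats by a log2 difference of -2.85 (SE 0.529, adjusted p = 0.0271), and this was the only one of the 13 probe sets called in that comparison, in which 8.51% of all probe sets were called. The interaction of strain and series was 3.19 (SE 0.748) with an adjusted p of 0.0856, and 0 of the 13 passed it (1 at an unadjusted p under 0.05, this probe set), where 2.76% of all probe sets did. Within ACI, limma called 0 of the 13 between series and 0 at an unadjusted p under 0.05, where 0.0838% and 4.46% of all probe sets passed, so 0 of 13 is near the background. Prlr 1370384_a_at passed the strain test in 9 of 25 alternatives. Without BN rats 4 and 5 its log2 difference was 1.44 (adjusted p = 0.047), without BN rats 1 to 3 it was 4.28 (adjusted p = 0.00359), without BN rat 3 it was 3.05 (adjusted p = 0.0263), and with the control difference as a covariate it was 4.34 (adjusted p = 0.0147). It also passed with the ID series as a block, with quantile normalization, centring or array weights, and when probe sets averaging under 4 were dropped (adjusted p = 0.0129). The series differed within BN in the control probe sets too, with beta-actin differences of 4.24 to 4.80 in the S rats and 2.45 and 3.21 in the H rats. Luminal epithelial markers averaged 7.79, 8.07, 8.50, 7.94 and 7.68 in BN rats 1 to 5 and 8.48 to 8.78 in ACI, and their part in the Prlr values was not tested.

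Ghr encodes the growth hormone receptor, and in rodents the same gene gives a soluble binding protein through alternative splicing. At the brighter probe set, 1373803_a_at, the ACI rats read 7.87, 7.91, 6.85, 7.24 and 6.99, and the BN rats read 8.60, 9.28, 8.74, 9.23 and 8.01. Every BN rat was above every ACI rat, by a gap of 0.10 between BN rat 5 and ACI rat 2. The means were 7.37 ± 0.493 and 8.77 ± 0.519 (SD, n = 5 each), so that this probe set was 2.64-fold higher in BN (log2 difference -1.40, SE 0.312, adjusted p = 0.0215).

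The other Ghr probe set, 1368924_at, read 6.42, 6.81, 6.13, 6.81 and 5.89 in ACI and 6.13, 6.53, 6.71, 6.86 and 5.99 in BN. These values overlapped throughout, with means of 6.41 ± 0.409 and 6.44 ± 0.373 (SD, n = 5 each). The log2 difference was -0.03 (95% confidence interval -0.584 to 0.52, adjusted p = 1). The strain differences of the 2 Ghr probe sets were themselves unequal, by -1.37 on the log2 scale (SE 0.224). Within an array, 1373803_a_at exceeded 1368924_at by 0.43 to 1.45 in ACI and by 2.02 to 2.75 in BN (exact permutation test, two-sided p = 0.0079, adjusted p = 0.032 over the 4 pairs compared). The sources used here do not say which Ghr transcripts each probe set reads. The call at 1373803_a_at was lost when ACI rat 3, 4 or 5 or BN rat 2 was left out, though the log2 difference stayed at -1.37 to -1.27 (adjusted p = 0.0508 to 0.0584). It was also lost among the S rats alone (-1.33, adjusted p = 0.104), among the H rats alone (-1.50, adjusted p = 0.498) and with the control difference as a covariate (-1.14, adjusted p = 0.171), with BN higher in each. Markers of stromal cell types mostly lay higher in BN, called or not, at 8 of 9 adipocyte and 7 of 7 fibroblast markers. Adipocyte markers averaged 9.38 to 10.48 in BN and 8.80 to 10.003 in ACI (2 of 9 called higher in BN). Fibroblast markers averaged 9.68 to 11.56 and 9.53 to 9.81 (1 of 7 called), and endothelial markers 7.39 to 8.44 and 6.19 to 6.96 (4 of 6 called). Their part in the Ghr difference was not tested.

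**Figure D3:**
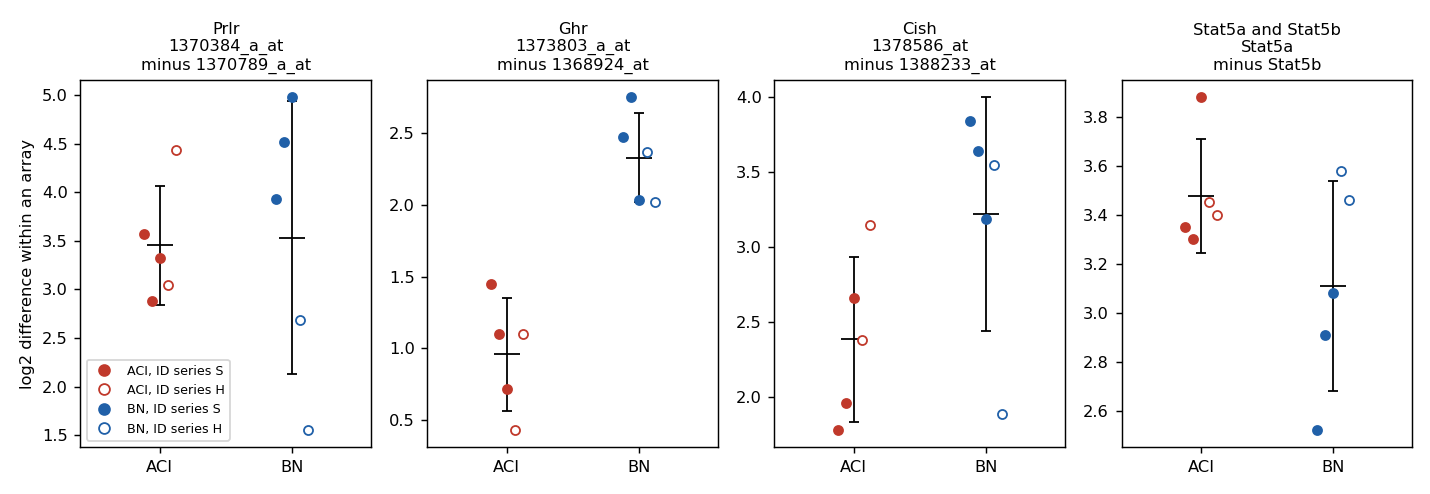
Log2 difference between 2 probe sets within each array (y axis) for Prlr, Ghr, Cish and for Stat5a against Stat5b, in 5 ACI and 5 BN rats, with strain means and SD bars and filled and open points for ID series S and H. A level on this axis depends on the probes, so the comparison is between strains, and the strains separate only for Ghr (0.43 to 1.45 in ACI, 2.02 to 2.75 in BN).

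Jak2 encodes the kinase that both receptors use, and its probe set 1368856_at did not pass the test. The ACI rats read 5.90, 5.91, 5.84, 6.32 and 5.04, and the BN rats read 6.43, 5.68, 5.83, 5.86 and 5.84. The ranges overlapped, with the lowest and the highest ACI rat both in series H. The log2 difference was -0.13 (SE 0.24, 95% confidence interval -0.674 to 0.422, adjusted p = 0.871), and differences within that interval were not excluded.

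Stat5a and Stat5b lie next to each other on the rat map and encode the 2 STAT5 proteins, of which Stat5a is the one most tied to the mammary gland. Stat5a (1368231_at) read 10.18, 9.86, 9.86, 10.06 and 9.10 in the ACI rats and 7.99, 8.28, 8.78, 8.95 and 8.60 in the BN rats. All ACI rats were above all BN rats, with ACI rat 5 the nearest to them, at a gap of 0.15. The means were 9.81 ± 0.421 and 8.52 ± 0.386 (SD, n = 5 each), 2.45-fold higher in ACI (log2 difference 1.29, SE 0.249, adjusted p = 0.0113). The difference was 1.62 among the S rats (adjusted p = 0.0218) and 0.81 among the H rats (adjusted p = 0.73). The interaction of strain and series was -0.81 (SE 0.486, adjusted p = 0.504), so the strain difference was not shown to differ between series. With the control difference as a covariate the strain difference was 0.82 and no longer passed (adjusted p = 0.129). The call was also lost without BN rats 1 to 3 (1.04, adjusted p = 0.124).

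Stat5b (1387876_at) read 6.83, 6.56, 5.98, 6.61 and 5.70 in ACI and 5.47, 5.37, 5.70, 5.37 and 5.14 in BN. ACI rat 5 and BN rat 3 had the same value, and the other ACI rats were above every BN rat. The means were 6.34 ± 0.474 and 5.41 ± 0.202 (SD, n = 5 each), a 1.9-fold higher level in ACI (log2 difference 0.93, SE 0.225, adjusted p = 0.0304). The call was lost when any of ACI rats 1, 2 and 4 or of BN rats 1, 2, 4 and 5 was left out, although the log2 difference stayed at 0.80 to 0.94. It was lost with the control difference as a covariate as well (0.95, adjusted p = 0.129). The strain differences of Stat5a and Stat5b were not shown to be unequal, at 0.37 apart (SE 0.218, exact permutation test, adjusted p = 0.19 over the 4 pairs).

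Cish encodes an inhibitor that STAT5 itself induces, and both of its probe sets were higher in ACI. At 1378586_at the ACI rats read 7.77, 7.69, 7.28, 7.84 and 7.49, and the BN rats read 6.50, 6.06, 6.76, 6.80 and 6.66. The strains were separated by 0.48, with means of 7.61 ± 0.228 and 6.56 ± 0.3 (SD, n = 5 each). This was 2.08-fold higher in ACI (log2 difference 1.06, SE 0.165, adjusted p = 0.0041), with a difference of 1.14 among the S rats (adjusted p = 0.0491) and 0.935 among the H rats (adjusted p = 0.255). The call held without BN rats 1 to 3 (0.88, adjusted p = 0.0328) but was lost with the control difference as a covariate (0.82, adjusted p = 0.0656).

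At the second Cish probe set, 1388233_at, the ACI rats read 5.99, 5.73, 4.62, 5.46 and 4.34, and the BN rats read 2.66, 2.42, 3.57, 3.25 and 4.77. The strains overlapped through BN rat 5, the only BN rat above 4. The means were 5.23 ± 0.715 and 3.33 ± 0.924 (SD, n = 5 each), a log2 difference of 1.89 (SE 0.51, adjusted p = 0.0447). Because 4 of the 5 BN values lay under 4, this size rests on values near background, and with values under 4 set to 4 the log2 difference was 1.07 and the call was lost (adjusted p = 0.0988). This call was the least stable of the 6, held in 8 of 25 alternatives and, when 1 rat was left out, only without ACI rat 5 or BN rat 5, and with the control difference as a covariate the log2 difference was 0.68 (adjusted p = 0.525). The strain differences of the 2 Cish probe sets were -0.84 apart (SE 0.427, exact permutation test, adjusted p = 0.19 over the 4 pairs) and -0.02 apart with values under 4 set to 4, and those of the 2 brighter Prlr probe sets were -0.08 apart (SE 0.685, exact permutation test, adjusted p = 0.91).

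Socs1 encodes an inhibitor that binds JAK kinases directly, and both of its probe sets (1375568_at and 1371252_at) lay at 2.23 in all rats but ACI rat 5, which read 2.27 at 1375568_at. Socs2, an inhibitor best known for limiting growth hormone action, read 2.84, 2.23, 2.49, 2.25 and 2.23 in ACI and 2.23 in all BN rats at 1369577_at. These 3 probe sets were near background in both strains and no fold is given for them. No strain difference could be measured for Socs1 or Socs2 with these probe sets.

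The rest of the pathway was read from 8 lists of 69 genes, of which 65 were measured, each by its probe set of highest mean. Of these, 10 were higher in ACI, 9 were higher in BN and 46 did not pass the test, and their median log2 difference was -0.01. Over all genes, 8.29% were higher in ACI and 9.12% higher in BN, which is the background for the counts of each list below. With the control difference as a covariate the counts were 11 and 1. The ligand genes Prl and Gh1, which are made mainly in the pituitary, were at 2.23 in all 10 rats.

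Other receptors that signal through STAT5 gave 3 of 10 higher in BN and 0 higher in ACI. Il2rg, the common gamma chain of lymphocyte cytokine receptors, had means of 6.96 ± 0.302 in ACI and 9.65 ± 0.796 in BN (log2 difference -2.68, SE 0.371, adjusted p = 0.00232). Csf2ra, the receptor chain for the myeloid growth factor GM-CSF, was lower in ACI by 1.77 (log2 difference -1.77, SE 0.322, adjusted p = 0.00868). Il3ra passed as well (-0.77, adjusted p = 0.0486) but was near background in both strains. Il7r did not pass at its brighter probe set (-0.85, adjusted p = 0.266). Its other probe set was higher in BN (-2.4, SE 0.296, adjusted p = 0.00138). Markers of blood cells lay higher in BN at the same time: B and plasma cell markers averaged 3.03 to 3.23 in ACI and 5.19 to 9.82 in BN (5 of 5 called), T cell markers 4.32 to 4.89 and 5.28 to 8.40 (5 of 7), and macrophage markers 6.50 to 6.91 and 8.01 to 9.12 (6 of 7). Their part in the receptor values was not tested.

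Among other JAK kinases and STATs, 1 of 7 was called, Stat3, which carries signals of the IL6 family and of involution. Its brighter probe set was higher in BN (log2 difference -0.54, SE 0.112, adjusted p = 0.0151), and its other probe set was higher in ACI (2.68, SE 0.379, adjusted p = 0.00261), so Stat3 has no single direction on this array. Of 13 other negative regulators, 2 were higher in BN. They were Ptpn6, a phosphatase of blood cells (-0.98, SE 0.245, adjusted p = 0.0334), and Socs5 (-0.78, SE 0.178, adjusted p = 0.0242), whose second probe set did not pass (-0.16, adjusted p = 0.596). Cav1 did not pass at its brightest probe set (-0.98, adjusted p = 0.0809). It was higher in ACI at 1 of its other probe sets (1.36, SE 0.332, adjusted p = 0.0308). Of 8 receptor and JAK2 adaptors, Irs2, a docking protein of the insulin and prolactin pathways, was higher in ACI (1.33, SE 0.286, adjusted p = 0.0186) and Shc1, which links receptors to RAS, was higher in BN (-0.70, SE 0.127, adjusted p = 0.00882).

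STAT5 partners in the gland gave 2 of 9 higher in ACI. Elf5, the ETS factor of alveolar cells that lies downstream of the prolactin receptor, had means of 11.94 ± 0.202 and 10.88 ± 0.227 (log2 difference 1.06, SE 0.133, adjusted p = 0.00144). Crebbp, a histone acetyltransferase that STAT5 recruits, passed at 1 of its 5 probe sets (0.57, SE 0.112, adjusted p = 0.0121). The milk genes read by the array were all expressed, at strain means of 13.99 to 15.71 and so near the top of the scale. Of these 6, 4 were higher in ACI, on a part of the scale where differences may be compressed: Glycam1 by 0.51 (SE 0.101), Csn1s1 by 0.43 (SE 0.0387), Csn2 by 0.40 (SE 0.0727) and Csn3 by 0.32 (SE 0.0785). Lalba, which encodes a subunit of lactose synthase, was higher in BN (-0.27, SE 0.075, adjusted p = 0.0492), and Wap did not pass the test (0.38, adjusted p = 0.184).

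Among 11 growth and survival genes tied to STAT5, 4 were higher in ACI and 1 was higher in BN. Tnfsf11, the paracrine growth signal RANKL, had the widest difference, with means of 7.44 ± 0.537 and 4.20 ± 1.19 (log2 difference 3.25, SE 0.57, adjusted p = 0.00725), and the study had named it on these samples. Its BN values ran from 2.7 to 5.14, reaching under 4, so this size rests in part on values near background. The other Tnfsf11 probe set was also higher in ACI (2.87, SE 0.381, adjusted p = 0.0019), with a BN mean of 3.11. Ccnd1, cyclin D1, had means of 11.51 ± 0.281 and 9.67 ± 0.621 at its brightest probe set (1.84, SE 0.297, adjusted p = 0.00488). Another Ccnd1 probe set was higher in ACI by 1.76 (adjusted p = 0.0011), and the remaining one did not pass (0.53, SE 0.17, adjusted p = 0.0835). Elf5, which is in this list too, and Akt1 (0.55, adjusted p = 0.00886) were also higher in ACI. Another Akt1 probe set differed by 2.00 (SE 0.506, adjusted p = 0.0353), and the remaining one lay at 2.23 in all rats. Bcl6, a repressor that STAT5 lowers in several cell types, was higher in BN (-0.78, SE 0.166, adjusted p = 0.0172). Igf1, the main mediator of growth hormone, did not pass at its brightest probe set (-0.99, adjusted p = 0.0824) and was higher in BN at 1 of its other probe sets (-1.42, adjusted p = 0.0257). Csn3, Wap, Akt1, Igf1, Prl, Gh1, Il7r and Cav1 were named after their values were seen.

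**Figure D4:**
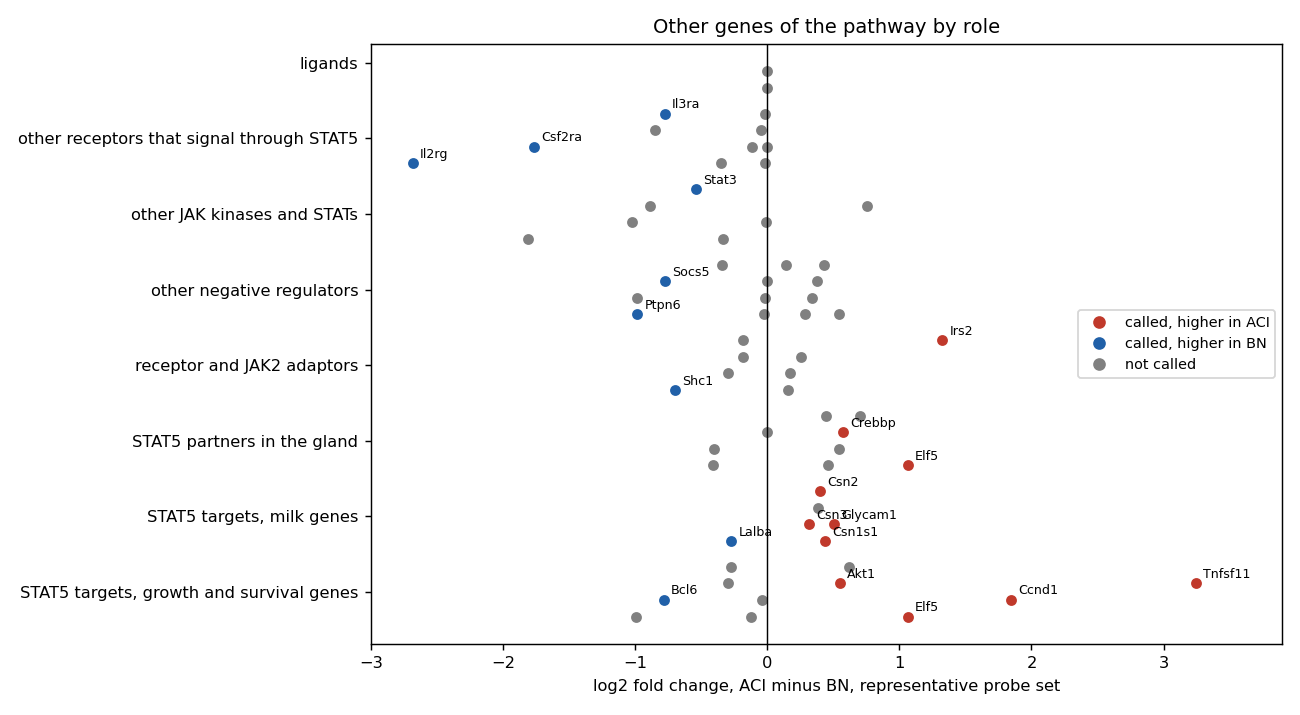
Log2 fold change (ACI minus BN, representative probe set) of the measured genes of the 8 pathway lists, 1 point per gene, with called genes coloured and named. The called receptors and negative regulators lie on the BN side, the called partners on the ACI side, and the milk genes within 0.51 of 0.

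**Figure D5:**
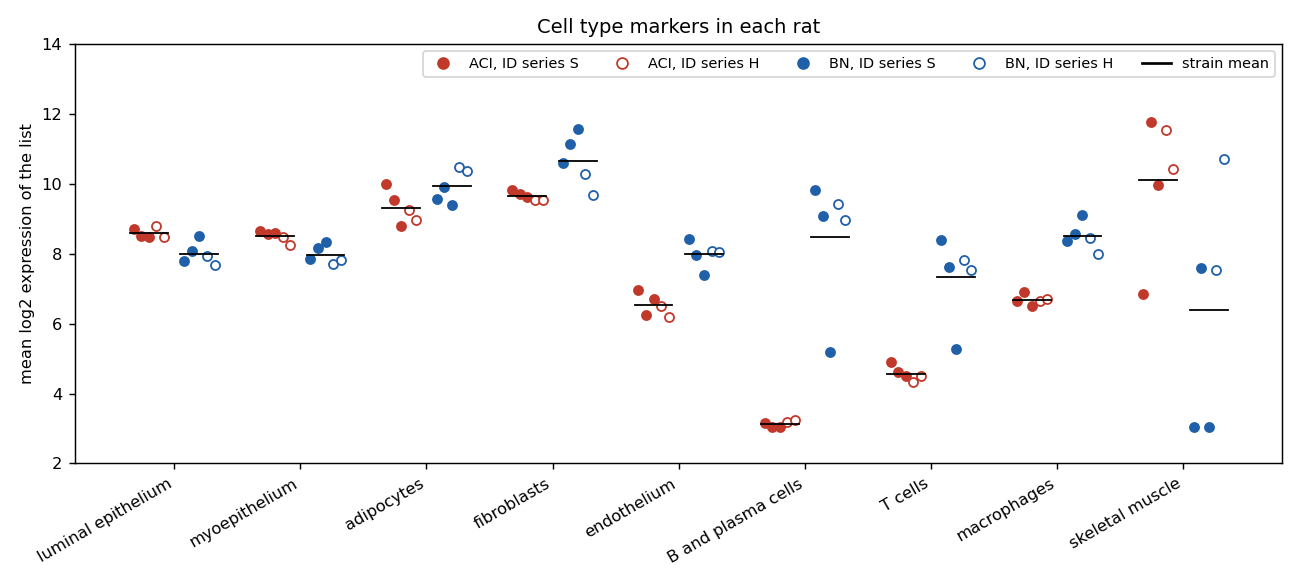
Mean log2 expression of 9 lists of cell type markers in each rat, with strain means as lines and filled and open points for ID series S and H. The list means of B and plasma cell, T cell, macrophage and endothelial markers are higher in every BN rat than in any ACI rat, though single markers of these lists overlap. Luminal list means overlap between strains in BN rat 3 (8.50).

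Markers of epithelium, fat, stroma, vessels and blood cells were all measured in these glands. Of 14 luminal epithelial markers, 4 were called higher in ACI and 0 higher in BN, with list means of 8.48 to 8.78 in ACI and 7.68 to 8.50 in BN, and Foxa1 and Esr1 were at 2.23 in all rats. Foxa1 and Esr1 were each read by 1 probe set, so whether they were expressed cannot be told from these values. Of 8 myoepithelial markers, 2 were called higher in ACI. Endothelial markers averaged 6.19 to 6.96 in ACI and 7.39 to 8.44 in BN (4 of 6 called higher in BN), and skeletal muscle markers ranged from 6.85 to 11.77 and from 3.04 to 10.71 with 0 of 10 called. Called or not, 9 luminal markers had a log2 difference above 0 and 3 below it, among them Krt7 at -1.53 (adjusted p = 0.0712), and 6 myoepithelial markers were above 0 and 2 below. All 10 skeletal muscle markers were above 0, with a median log2 difference of 3.99, though the ranges of the strains overlapped. All 6 endothelial markers were below 0. The part of epithelial or muscle markers in the differences of Prlr, Stat5a, Stat5b and Cish was not tested.

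For each of the 4 genes called by its brightest probe set, the genes with the most similar values were found by the mean absolute difference of centred log2 values over the 10 arrays, among 9361 genes. For Ghr these were Ackr2 (0.182), Cpq (0.182) and Mfap5 (0.195). For Stat5a they were Bckdk (0.096), Znrd2 (0.12) and Slc16a1 (0.14). For Stat5b they were Cldn6 (0.116), Plxnb2 (0.124) and Tbl3 (0.13), and for Cish they were Ankrd17 (0.112), Kyat1 (0.136) and Lima1 (0.148). Of these 12 genes, all but Cldn6 (adjusted p = 0.0504) were called in the same direction as the gene they resembled, which the measure itself favours.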

How the data were processed

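Total RNA of individual mammary glands was labelled with biotin and measured on Affymetrix whole-genome rat arrays, 1 per rat. Per the labels' processing notes, the authors summarized probe values with GCRMA 2.18.1 to log2 expression per probe set, and the deposited log2 values were used unchanged. GCRMA subtracts background and normalizes the arrays, and many low signals in the deposited values sat at the lowest value. Of 31099 probe sets, 57 controls were left out of the tests. Of the others, 20826 had 1 gene symbol (20758 updated by gene ID), 436 had several and 9780 had none, and none with several held a pathway gene studied here.

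ACI and BN rats were compared with limma 3.58.1 in R 4.3.3, fitting strain alone, with Benjamini-Hochberg adjustment over 31042 probe sets, and every adjusted p without another test named comes from it. Two-sided exact permutation tests over rats used all 252 arrangements. The number of arrays limits the precision. The limma strain fit was tested on simulated data, and the other tests were not. The genes, the lists and the alternatives were chosen with earlier results of these data known. The text names every member, and from each pathway list the called genes with the largest differences, at most 3 per direction. The alternatives were replicate and ID series blocks, each series alone, rats left out, filters, normalization, variance models and other tests. The covariate from control probe sets and the removal of BN rats 1 to 3 were added after the data were seen.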

Additional observations from a re-analysis of the deposited data

Results flagged for a closer look

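Among 72 groups of 5 rats, 7 had 1 rat whose gap to its nearest neighbour exceeded Dixon's 95% critical value of 0.71 of the range, where chance alone gives about 1 in 20 groups. Prlr 1369493_at was 4.46 in ACI rat 2, against 3.34 to 3.57 in the other ACI rats. The same probe set was 3.08 in BN rat 1, against 3.34 to 3.43 in the other BN rats. Jak2 was 6.43 in BN rat 1 and 5.68 to 5.86 in the others. Socs1 1375568_at was 2.27 in ACI rat 5 and 2.23 in the others, a step of no size near background. Stat5a exceeded Stat5b by 3.88 in ACI rat 3 and by 3.30 to 3.45 in the others. Il2rg was 6.44 in ACI rat 5 and 6.96 to 7.16 in the others, and Ccnd1 was 12 in ACI rat 4 and 11.31 to 11.50 in the others.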

How the results depend on the processing

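The 6 called probe sets kept their direction in all 25 alternatives, and over the 10 probe sets above background in any rat 193 alternative values stayed on their side of the threshold, 47 lost the call and 9 gained it. The probe sets of the 8 genes called higher in ACI (5) and in BN (1) became 2 and 0 with the control covariate, 3 and 0 without BN rats 1 to 3, and 0 and 0 in series H alone. In series S alone 0 were higher in BN, and the Welch test and the trended, robust variance each gave 3 higher in ACI. Leaving out 1 rat gave 3 to 5 higher in ACI (3 when rat 1, 2 or 4 of either strain was dropped) and 0 to 1 higher in BN (0 when BN rat 2 or any of ACI rats 3 to 5 was dropped). Over all probe sets, the counts of 2108 higher in ACI and 1822 higher in BN became 45 and 55 in series H and 3719 and 4678 with array weights. The BN count was 2783 in series S, 3768 without BN rats 4 and 5, 2807 after centring, 913 with the control covariate (1919 higher in ACI) and 1176 to 2500 when 1 rat was left out. Of the pathway genes, 10 and 9 became 0 and 1 in series H and 17 and 18 with array weights. Their BN count was 14 without BN rats 4 and 5, 4 by the Welch test, 1 with the control covariate, 4 without BN rats 1 to 3, and 5 to 10 when 1 rat was left out (5 when BN rat 2 or any of ACI rats 1 to 3 was dropped). The cause of these changes was not tested, but the smaller series hold fewer rats.

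Same-numbered ACI and BN rats had correlations of their deviations of 0.107, -0.127, -0.099, 0.226 and -0.255, so the numbers were not taken as pairs. With the replicate number as a block, 2 probe sets of the 8 genes were higher in ACI, where Stat5a (adjusted p = 0.0763), Stat5b and Cish 1388233_at lost their calls, with 1040 and 886 probe sets and 5 and 4 pathway genes called. The 2 Prlr probe sets differed by -1.22 in series S alone. The difference between the Ghr probe sets was -1.49 to -1.24 when 1 rat was left out, with an adjusted p of 0.0635 in 9 of these 10 cases, in which 4 against 5 rats allow no smaller value when this pair alone is extreme. The difference between the Cish probe sets was -1.17 to -0.68, past the threshold only without BN rat 5 (exact permutation test, adjusted p = 0.0317), and was -1.42 in series S alone and -0.02 (adjusted p = 0.968) with values under 4 set to 4. With probe sets of low mean left out, 1 probe set, Prlr 1370384_a_at, passed the interaction of strain and series.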
